A study of Mus musculus with 24 samples.

Results

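Data are given for 8 probes of a small microarray hybridised with mouse liver RNA, named Mm014, Mm027, Mm133, Mm002, Mm013, Mm012, Mm046 and Mm112 in the files. They were selected on their mean ratios, because their phenobarbital response in mice lacking both the receptors CAR and PXR lay below the response that adding the effects of losing each receptor singly would give. They are 8 of the 120 mouse probes on the array, and all 8 were among the 80 probes that passed a filter on dim signal. The choice used the mean response in each of the 4 genotypes, so those means and the shortfall computed from them are given as a description without a test.

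Male C57BL/6J mice of 4 genotypes were compared: CAR/PXR-deficient, PXR-deficient, CAR-deficient and wild type (WT). Every treated mouse received 100 mg/kg phenobarbital by intraperitoneal injection, with livers taken 12 h later, and controls received the vehicle, 5% DMSO in corn oil. The deficient mice were 9 to 12 weeks old, while the labels used here give no age for WT mice and no allele for any deficiency. Each of the 24 arrays, 6 per genotype, held 1 treated liver in the red channel (Cy5) and pooled RNA of 6 vehicle-treated livers from mice of that genotype in the green channel (Cy3). Each genotype thus had 1 vehicle pool, the dyes were never swapped, and a difference between genotypes can lie in the treated livers or in the pools. For WT replicate 1 the labels of the second channel disagree, with phenobarbital in the treatment tag and the untreated pool in the source name, and the channel was read as the pool.

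CAR and PXR are nuclear receptors of hepatocytes that respond to drugs and other foreign compounds. Each pairs with RXR on response elements of genes for cytochrome P450 enzymes, conjugating enzymes and transporters, and their sets of target genes overlap. Phenobarbital is the classical activator of CAR, which it moves into the nucleus without binding the receptor directly, and some CAR target genes can also be driven by PXR. The Sterolgene array used here was designed around sterol and drug metabolism. No table used here links probe numbers to genes, and the 8 probes are therefore described by number, without gene, sequence, position in the genome or function, and the receptors' own transcripts could not be read as a check of the genotypes.

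Each array held 3 spots of every probe, and between 45 and 120 probes per array (median 81) kept a ratio after the scanner's flagged spots were left out. Up to 66.4% of an array's probe spots were flagged, against 0% on the array of WT replicate 6. That array kept a ratio for 120 probes, of which 55 exceeded background. PXR-deficient replicates 1 and 2 differed by little more than the noise between spots, and were counted as 1 sample, which leaves 23 samples. Beyond that, the p-values reflect the scatter among these samples, part of which may be technical. Values below are log2 ratios of the treated liver over the vehicle pool of its genotype, after the array was centred by loess, so that 0 is the level of a typical probe of that array. In whole liver, fewer cells of a type and less RNA per cell cannot be told apart.

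The quantity behind the choice is called the additivity gap here. It is the mean log2 ratio in CAR/PXR-deficient livers minus the additive sum, which is the PXR-deficient mean plus the CAR-deficient mean minus the WT mean. Among the 8 probes the gap lay between -1.40 and -0.71, with a median of -0.97, whereas over the 78 probes measured in all genotypes the median was -0.02 and 40 lay below 0. Mm014 had the largest shortfall, with a measured -0.99 in CAR/PXR-deficient livers against an additive sum of 0.41 (gap -1.40, SE 0.38). Mm112 had the smallest, with -0.34 measured against a sum of 0.37 (gap -0.71, SE 0.22). In all 8 probes the measured ratio was below 0 and the additive sum above 0.

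Losing a single receptor mostly gave ratios above those of WT: the effects of the single losses summed to between 0.32 (Mm027) and 1.04 (Mm014), with a median of 0.62. The PXR-deficient mean lay above the WT mean in 7 of 8 probes (median difference 0.38, with Mm012 at -0.01), and the CAR-deficient mean in 6 of 8 (median difference 0.35, with Mm027 at -0.07 and Mm133 at -0.10). The comparison with CAR-deficient livers leaned on WT replicate 6: without that array its median difference was 0.19 and 5 of 8 lay above WT, with Mm112 at -0.0041, and that of PXR-deficient livers was 0.26 with 7 of 8 above WT. CAR/PXR-deficient livers, by contrast, lay between 0.76 below (Mm027) and 0.12 above (Mm046) the WT mean. This comparison with WT is for loess centring and turned with some of the other centrings given below. As a group the 8 probes are therefore better named by their gap than by a fall without receptors, since the ratio of Mm046 was -0.48 in CAR/PXR-deficient livers and -0.59 in WT livers.

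**Figure D1:**
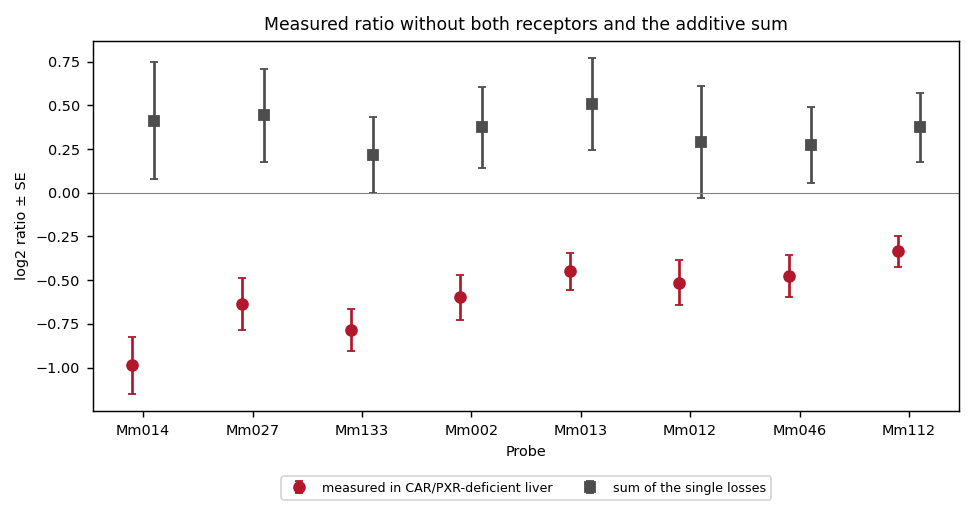
Measured mean log2 ratio in CAR/PXR-deficient livers beside the additive sum of the PXR-deficient, CAR-deficient and WT means for each of the 8 probes, both with their SE on the log2 scale. Every measured mean lies below 0 and every additive sum above 0, and the distance between them is the gap of -1.40 (Mm014) to -0.71 (Mm112).

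The 8 probes hold ranks 3 to 10 from the lowest gap among 78 probes. Mm052 (gap -1.45, SE 0.56) and Mm051 (gap -1.44, SE 0.31) had lower gaps and are not among the 8. Mm052 stood at -0.29 in CAR/PXR-deficient, 1.85 in PXR-deficient, 0.32 in CAR-deficient and 1.01 in WT livers, and Mm051 at 0.10 in CAR/PXR-deficient, 1.44 in PXR-deficient, 0.52 in CAR-deficient and 0.43 in WT livers. The next probe outside, Mm036, had a gap of -0.70 (SE 0.21), next to Mm112 at -0.71 inside. Its CAR/PXR-deficient mean was -0.02. The ranking does not show why Mm052 and Mm051 are outside the 8 while Mm112 is inside.

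**Figure D2:**
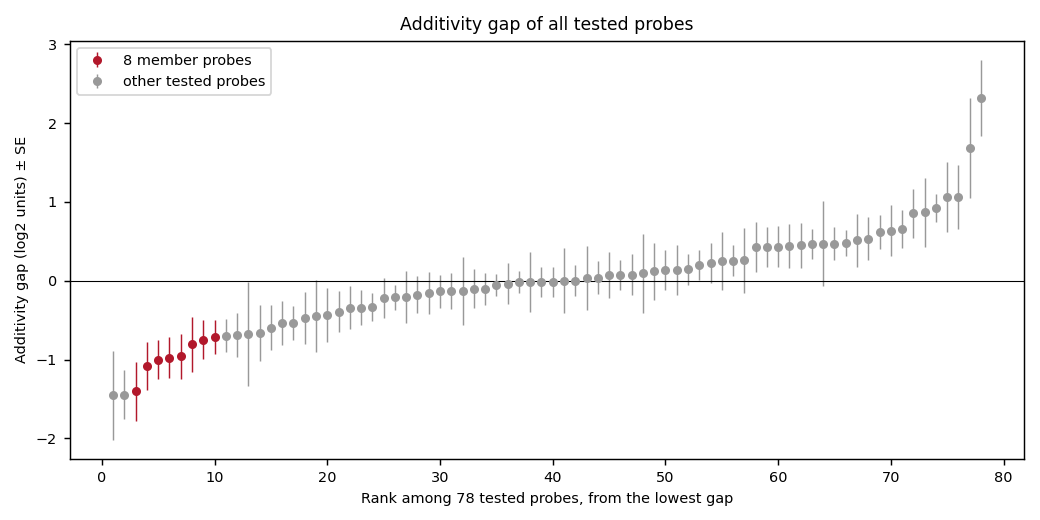
Additivity gap on the log2 scale, with its SE, of the 78 probes measured in all genotypes, ordered from lowest to highest. The 8 probes described here take ranks 3 to 10, after Mm052 and Mm051 and before Mm036.

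Among the brighter members, Mm014 lacked ratios in some PXR-deficient and WT samples, and the others had them in every sample. For Mm014 the treated channel exceeded background on 2 of 6 WT arrays and the pool channel on 4. Mm014 had log2 ratios of -1.01, -1.61, -0.91, -1.22, -1.24 and 0.07 in CAR/PXR-deficient livers 1 to 6, -0.06, 0.05 and -0.37 in 3 PXR-deficient samples, between -0.30 and 0.34 (median -0.17) in 6 CAR-deficient livers, and between -1.18 and -0.0011 (median -0.58) in 5 WT livers. CAR/PXR-deficient livers 1 to 5 lay below all livers with a single deficiency, while replicate 6 lay among them. All 5 WT livers lay inside the CAR/PXR-deficient range, and WT replicates 5 and 6, at -1.04 and -1.18, lay among CAR/PXR-deficient livers 1 to 5. The group means were -0.99 ± 0.57 (SD, n = 6) in CAR/PXR-deficient, -0.13 ± 0.22 (n = 3) in PXR-deficient, -0.09 ± 0.22 (n = 6) in CAR-deficient and -0.63 ± 0.49 (n = 5) in WT livers.

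Mm027 had log2 ratios of -1.15, -0.39, -0.43, -0.96, -0.69 and -0.19 in CAR/PXR-deficient livers 1 to 6 and 0.64, 0.74, 1.07, 0.17 and -0.04 in the 5 PXR-deficient samples. CAR-deficient livers lay between -0.19 and 0.24 (median 0.07) and WT livers between -0.53 and 0.62 (median 0.32). All 6 CAR/PXR-deficient livers lay below every liver with a single deficiency, though the highest of them and the lowest CAR-deficient liver were both at -0.19, and 2 of 6 WT livers, replicates 2 and 6, lay as low as they did. Mm133 had -0.67, -0.93, -0.72, -1.24, -1.07 and -0.08 in CAR/PXR-deficient livers and 0.39, 0.10, 0.33, 0.12 and 0.64 in PXR-deficient samples, with CAR-deficient livers between -0.66 and -0.09 (median -0.35) and WT livers between -0.70 and 0.30 (median -0.30). For Mm133 the PXR-deficient samples stood above the CAR/PXR-deficient and CAR-deficient livers without overlap, and CAR/PXR-deficient replicate 6 again lay highest in its group.

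Mm002 had log2 ratios of -0.66, -1.02, -0.32, -0.50, -0.46 and -0.63 in CAR/PXR-deficient livers 1 to 6 and 0.09, 0.28, 0.27, -0.07 and -0.17 in PXR-deficient samples. CAR-deficient livers lay between -0.30 and 0.26, and WT livers between -1.17 and 0.12 (median -0.08). CAR/PXR-deficient livers did not overlap with those of either single deficiency, and WT replicates 2 (-0.67) and 6 (-1.17) lay in or below their range. Mm046, the brightest member, had -0.60, -1.35, -0.27, -0.35, -0.08 and -0.20 in CAR/PXR-deficient livers and -0.12, -0.58, -0.48, -0.69, -1.02 and -0.68 in WT livers. Its PXR-deficient samples lay between -0.39 and 0.16 and its CAR-deficient livers between -0.28 and -0.06, so all 4 genotypes overlapped.

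The remaining members were dimmer and had fewer values. Mm013 had log2 ratios of -0.41, -0.18, -0.47, -0.19, -0.39 and -1.06 in CAR/PXR-deficient livers, between -0.09 and 0.06 in 3 PXR-deficient samples, between 0.10 and 0.29 in 4 CAR-deficient livers, and of -0.08 and -0.59 in 2 WT livers. Mm012 had -0.76, -0.99, -0.22, 0.03, -0.30 and -0.86 in CAR/PXR-deficient livers, -0.57, -0.12 and -0.19 in 3 PXR-deficient samples, between -0.02 and 0.69 in 5 CAR-deficient livers, and -0.07 and -0.49 in 2 WT livers. Mm112 had -0.54, 0.02, -0.31, -0.14, -0.47 and -0.59 in CAR/PXR-deficient livers, 0.16, 0.37 and 0.40 in 3 PXR-deficient samples, between -0.30 and 0.27 in 6 CAR-deficient livers, and -0.04, 0.12 and -0.16 in 3 WT livers. The WT means of Mm012 and Mm013 thus rest on replicates 1 and 6 alone, and each of these 3 probes exceeded background on 1 of 6 WT arrays in either channel.

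**Figure D3:**
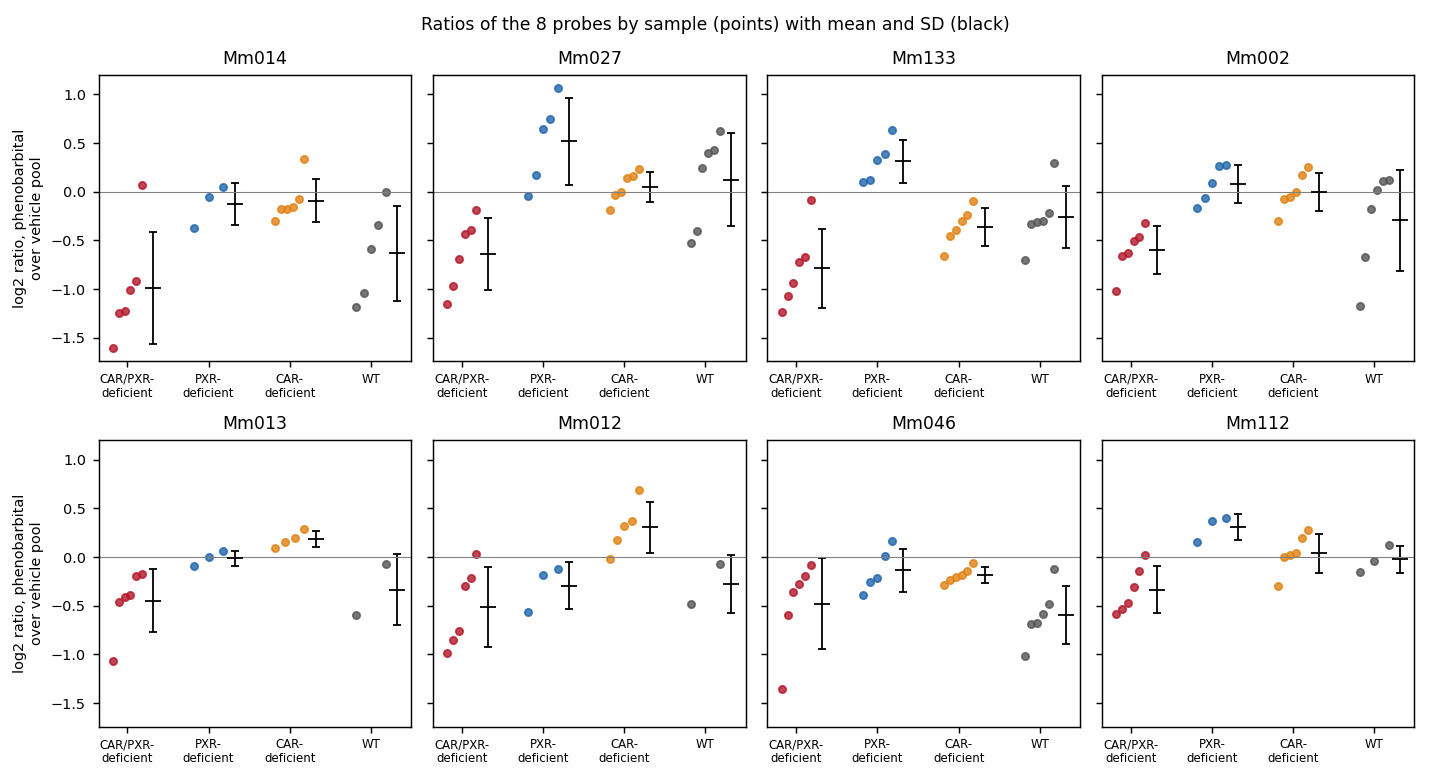
Log2 ratio of treated liver over vehicle pool for each sample (points) with the genotype mean and SD (black) of the 8 probes, with CAR/PXR-deficient livers left of PXR-deficient, CAR-deficient and WT livers. CAR/PXR-deficient means lie between -0.99 (Mm014) and -0.34 (Mm112), and no probe separates CAR/PXR-deficient from WT livers.

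Without any overlap, every CAR/PXR-deficient liver lay below every PXR-deficient sample in 5 of the 8 probes (Mm002, Mm013, Mm027, Mm112 and Mm133), against 16.7% of the 78 probes. CAR/PXR-deficient livers lay below every CAR-deficient liver in 3 of 8 (Mm002, Mm013 and Mm027), against 5.13%, and below every WT liver in 0 of 8, against 3.85%. These counts use the same means as the choice and describe its members, with loess centring. The low place of CAR/PXR-deficient livers depends on the centring, as given below.

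With loess centring, loss of either receptor gave lower ratios in all 8 probes when the other was missing too. The direction depends on the centring, as given below. With CAR already absent, loss of PXR shifted the log2 ratio by -0.90 (Mm014) to -0.29 (Mm046), and with PXR already absent, loss of CAR shifted it by -1.15 (Mm027) to -0.22 (Mm012). These shifts make up the gap and are part of what chose the probes.

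Because each array sets a treated liver against the vehicle pool of its own genotype, the channels were also read apart, after scaling the arrays to a common brightness. The vehicle pool of CAR/PXR-deficient mice was the brightest of the 4 pools in 7 of the 8 probes, against 39.7% of the 78 probes. The pool is the denominator of the ratios behind the choice, so this count describes the members. For Mm002 the treated livers had a log2 level of 10.62 in CAR/PXR-deficient, 10.28 in PXR-deficient, 10.32 in CAR-deficient and 9.98 in WT mice, and the pools 11.21 in CAR/PXR-deficient, 10.20 in PXR-deficient, 10.32 in CAR-deficient and 10.28 in WT mice. For Mm027 the treated livers stood at 12.27 in CAR/PXR-deficient, 12.28 in PXR-deficient, 11.82 in CAR-deficient and 12.11 in WT mice, and the pools at 12.91 in CAR/PXR-deficient, 11.77 in PXR-deficient, 11.77 in CAR-deficient and 11.99 in WT mice. In these 2 probes the CAR/PXR-deficient pool stood out, and the treated CAR/PXR-deficient livers were not the lowest of the 4 genotypes.

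Computed in each channel separately, the gap had a median of 0.10 in treated livers and 0.99 in the pools over the 8 probes, against 0.01 and 0.09 over all 78. The channel gaps make up the gap behind the choice and describe the members. The pool gap was above 0 in 7 of 8 (55.1% of all probes) and was the larger of the channel gaps in 6 of 8 (52.6%). Mm013 and Mm112 were the exceptions, with gaps of -0.74 and -0.84 in treated livers against 0.22 and -0.13 in the pools, and they were the 2 probes whose treated CAR/PXR-deficient livers had the lowest level of the 4 genotypes. The split depends on the scaling: with each channel centred on the 34 probes measured on every array, the median gap was -0.47 in treated livers and 0.65 in the pools. The pool gap stayed above 0 in 7 of 8 (42.3% of all probes) and was the larger in 4 of 8. The treated gap was then below 0 in 6 of 8, against 3 of 8 (36 of all 78 probes) with the first scaling. With the channels centred separately, the CAR/PXR-deficient pool was the brightest in 5 of 8 probes, against 14 of all 78. It was no longer so in Mm012 and Mm112, while Mm013 was the exception under both scalings. As each genotype had 1 vehicle pool, a different basal level in CAR/PXR-deficient mice, a pool that stands apart and a phenobarbital response cannot be told apart in the ratios of these probes.

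**Figure D4:**
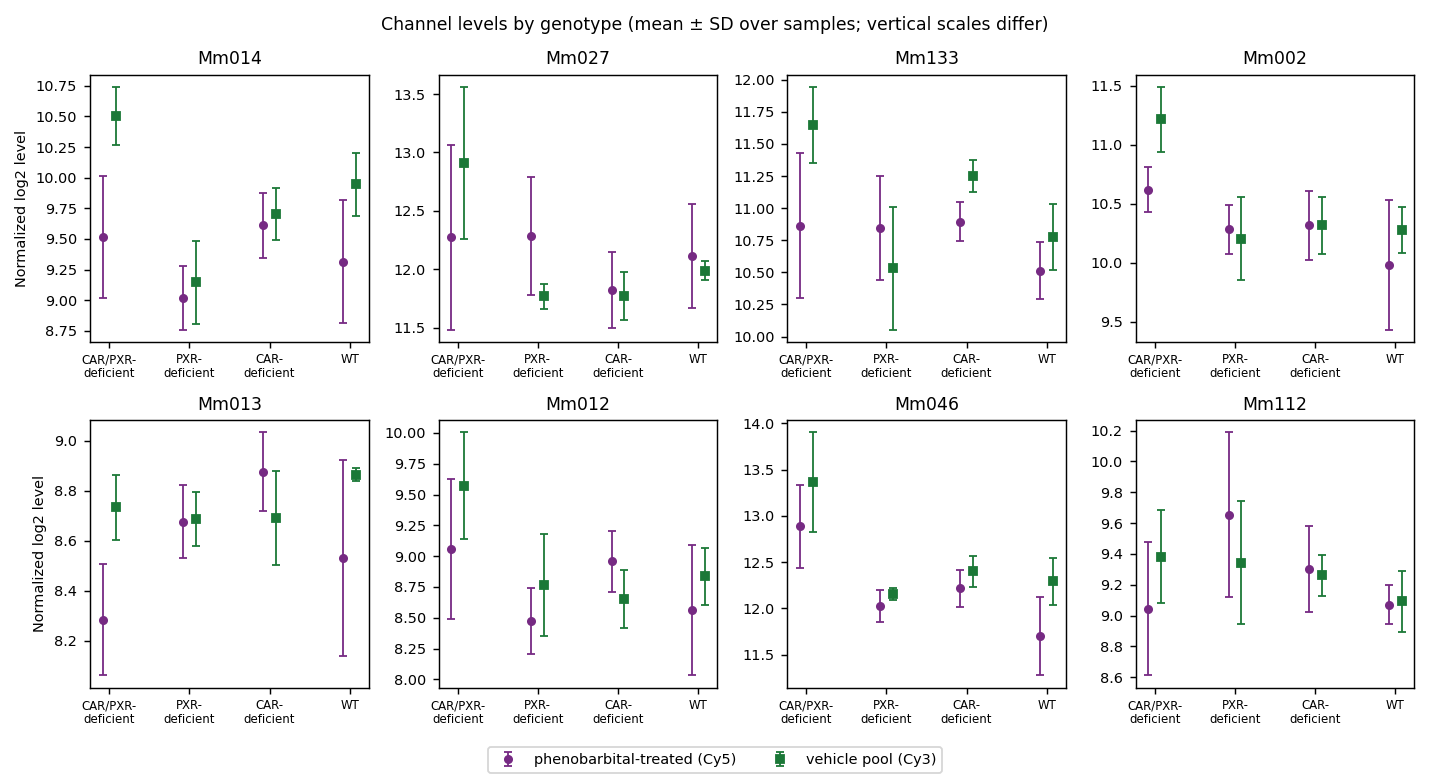
Log2 level of the 8 probes in treated livers and in the vehicle pool, by genotype, as means ± SD over samples with arrays scaled to a common brightness, so that the SD of a pool is technical. The CAR/PXR-deficient pool is the brightest pool in 7 of 8 probes, and treated CAR/PXR-deficient livers are the lowest treated group in Mm013 and Mm112.

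The sign of the members' ratios depends on what is taken as the zero of an array, and the gap does so less. With arrays centred on the spots whose names begin with Lcal, read here as calibration spots, the ratios in CAR/PXR-deficient livers lay above 0 in all 8 probes (median 0.56), but the median of all probes then stood at 1.12. In the authors' deposited table the members' median in CAR/PXR-deficient livers was 0.78 and that of all probes 1.34. The order of the genotypes also depended on the centring. Members' medians with calibration spots were 0.56 in CAR/PXR-deficient, 0.55 in PXR-deficient, 0.64 in CAR-deficient and -0.63 in WT livers. In the authors' table they were 0.78, 0.47, 0.61 and -0.41. The CAR/PXR-deficient mean was the lowest of the 4 genotypes in 7 of 8 probes with loess or probe medians. It was so in 0 of 8 with calibration spots or the authors' table as deposited, and in 8 of 8 with that table centred. The gap remained below 0 in 8 of 8 probes under loess, probe-median and calibration-spot centring and in the authors' deposited table with or without centring, with members' medians between -1.18 and -0.66. Its size changed most for Mm012 and Mm013: in the authors' deposited table the gap of Mm012 was -0.01 as deposited and -0.08 with arrays centred, and that of Mm013 was -0.34 as deposited and -0.16 with arrays centred. Of all 78 probes, 51.3% had a gap below 0 with loess, 50% with probe medians, 70.5% with calibration spots, 41.0% in the authors' deposited table and 51.3% in that table with arrays centred. Relative to the median probe of their centring, the CAR/PXR-deficient means of all 8 lay below it in each case. The distance between the median probe and the calibration spots was itself uneven, at 0.51 to 2.25 on CAR/PXR-deficient, -0.04 to 0.77 on PXR-deficient, 0.51 to 0.84 on CAR-deficient and -0.74 to 0.22 on WT arrays, and its part in the gap was not tested.

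**Figure D5:**
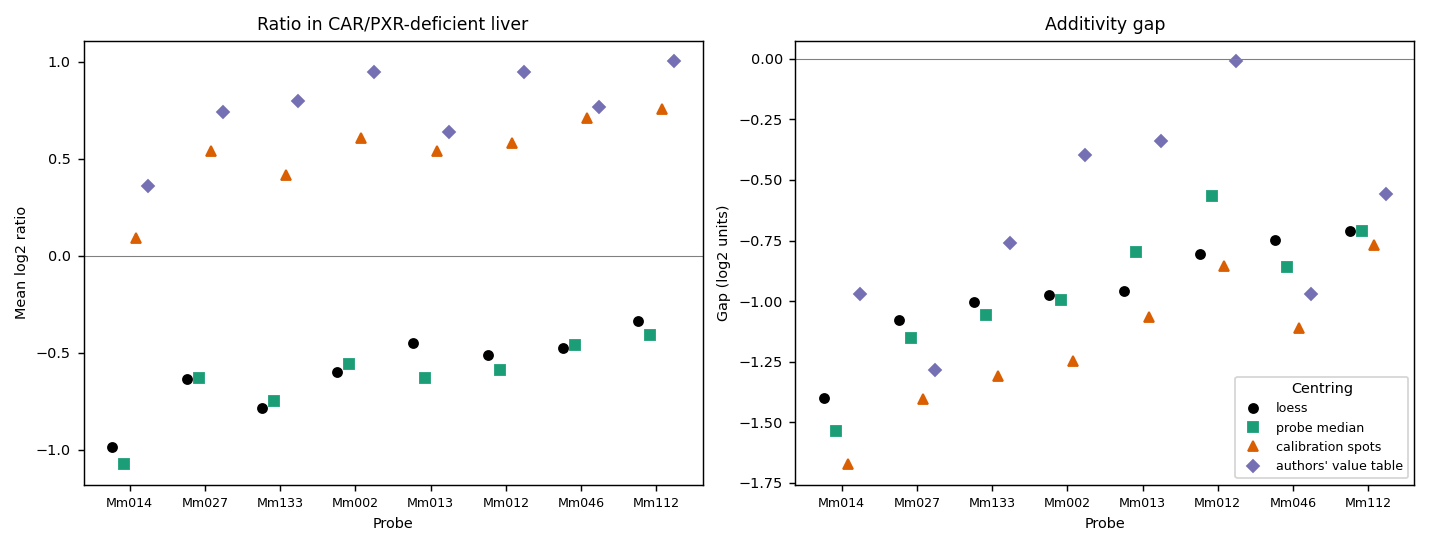
Mean log2 ratio in CAR/PXR-deficient livers (left) and additivity gap in log2 units (right) of the 8 probes under loess, probe-median and calibration-spot centring and in the authors' deposited table. The ratios lie below 0 with loess and probe medians and above 0 otherwise, while every gap lies below 0, the nearest to 0 being Mm012 at -0.01 in the authors' deposited table.

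Within scan positions, the gap lay between -1.81 (Mm002) and -0.83 (Mm112) on position 1, where the WT group is the single array of replicate 6, and between -1.52 (Mm014) and -0.53 (Mm012) on position 2. Each member was printed as 3 spots, and the gap computed from each copy alone was below 0 in 24 of 24 copies, between -1.48 and -0.39. The copies lie on the same arrays and make up the averages behind the choice, so this count describes the members. Copies of other probes were not examined. The probes were spread over both print blocks, with 4 in block 1 (Mm013, Mm027, Mm112 and Mm133, median gap -0.98) and 4 in block 2 (Mm002, Mm012, Mm014 and Mm046, median gap -0.89), where all tested probes had medians of -0.02 and 0.0035. Mm012 and Mm014 lay in neighbouring rows of the same columns of block 2, and Mm013 held the same columns and rows of block 1 as Mm014 in block 2. In brightness the members ranged from rank 5 of 80 (Mm013) to rank 70 (Mm046), counted from the dimmest. No spot of a member carried the scanner's flag for bad spots.

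Averages over genotypes show where the members part from each other. They hold the CAR/PXR-deficient means behind the choice, and are given without a test. Averaged over mice with and without PXR, CAR loss shifted the log2 ratio by -0.61 for Mm027 (SE 0.15), -0.60 for Mm133 (SE 0.12) and -0.29 for Mm112 (SE 0.11), and by between -0.19 and 0.18 for the other 5 members (median of the 8, -0.18). Averaged over mice with and without CAR, PXR loss shifted it by -0.42 for Mm012 (SE 0.17), and by between -0.20 and 0.08 for the other 7. These shifts depend on the centring. With calibration spots, CAR loss gave -0.14 for Mm027, 0.20 for Mm133 and 0.60 for Mm112, and PXR loss gave 0.076 for Mm012. In the authors' deposited table, CAR loss gave 0.19 for Mm027, 0.46 for Mm133 and 0.66 for Mm112, and PXR loss gave 0.34 for Mm012.

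The mean response over the 4 genotypes was -0.46 for Mm014 (SE 0.09), -0.35 for Mm046 (SE 0.06), -0.27 for Mm133 (SE 0.06) and -0.20 for Mm002 (SE 0.07), relative to a typical probe under loess. The sign turned with calibration spots for Mm046, Mm133 and Mm002, and for all 4 of these probes in the authors' deposited table, where Mm014 stood at 0.14. The mean response of Mm027 was 0.01 and of Mm112 close to 0, with positive and negative genotype means cancelling.

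The PXR-deficient against the CAR-deficient response uses no CAR/PXR-deficient liver, and both means enter the gap with the same sign. Both are nevertheless among the means behind the choice. With unequal numbers of samples their difference is not wholly separate from the gap. It was tested with limma over all probes, with Benjamini-Hochberg adjustment at 0.05. Between the single deficiencies, the response of Mm133 in PXR-deficient livers exceeded that in CAR-deficient livers by 0.67 (SE 0.18, adjusted p = 0.0105), with means of 0.31 ± 0.22 (SD, n = 5) in PXR-deficient and -0.36 ± 0.19 (n = 6) in CAR-deficient livers and no overlap. It was the only member called, against 19.2% of probes called in either direction, and the call was lost with the authors' deposited table (adjusted p = 0.860), with that table centred (0.0793) and with calibration spots (0.353). Within scan position 1 the difference was 0.85 (adjusted p = 0.105) and within position 2 it was 0.52 (adjusted p = 0.194). Mm012 differed in the other direction by -0.60 (SE 0.23, adjusted p = 0.0873), with -0.29 ± 0.24 (SD, n = 3) in PXR-deficient and 0.31 ± 0.26 (n = 5) in CAR-deficient livers. A low gap is what chose the members, and the estimates of Mm133 and Mm012 differed in direction. Only that of Mm133 passed the test, so opposite orders of the single deficiencies were not established.

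Among probes outside the 8, likeness was taken as the root mean square difference of the 4 genotype means from the members' average profile, which was -0.60 in CAR/PXR-deficient, 0.08 in PXR-deficient, -0.01 in CAR-deficient and -0.29 in WT livers. The members themselves lay within 0.30 of it. Mm128 came closest (0.25), followed by Mm055 (0.26) and Mm084 (0.27), and their gaps were -0.45 (SE 0.46), -0.03 and -0.21.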

How the data were processed

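Per the file headers, the deposited scanner files hold GenePix spot intensities per channel, a percent of saturated pixels per spot and a quality score (flag) per spot. The authors' deposited value table holds log2 ratios with centring and scale not stated. Its columns correlated with the log2 ratios of the scanner files at 0.79 to 0.99, and their medians ran from -0.43 to 2.95.

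Mean intensities were background-corrected with normexp (offset 50), flagged and control spots were left out or given weight 0, ratios were normalized by loess within arrays, and the 3 copies were averaged (R 4.3.3, limma 3.58.1). Probes were kept when at least 2 spots exceeded the local background median by 2 SD in either channel on 12 of 24 arrays. This left 80 of 120. limma's moderated test was fitted over all probes and 23 samples, with PXR-deficient replicates 1 and 2 averaged (the noise ratio of that pair was 1.04, the lowest of 60 pairs within genotypes, where the next was 1.79), and Benjamini-Hochberg adjustment at 0.05. Contrasts holding the means that chose the members are given as estimates only, except PXR-deficient against CAR-deficient, which was tested. The number of arrays limits the precision. The test was tried on simulated data.

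The members, lists and tests were chosen with earlier results of these data known. Probes named besides the 8 are those with the lowest gaps and the closest genotype means. The samples were not treated as paired by replicate number. Of 36 same-number correlations, 14 exceeded 0.1, with a range of -0.52 to 0.68 and a median of 0.02. These values do not settle whether the numbers pair the samples. Alternatives covered centring, background, flags, filters, weights, alike arrays, scan position, the replicate block and left-out samples.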

Additional observations from a re-analysis of the deposited data

Results flagged for a closer look

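In 25 sets of 4 to 6 samples of a member, 2 held a sample that stood apart by Dixon's 95% criterion, which chance passes in about 5% of sets. Mm013 stood at -1.06 in CAR/PXR-deficient liver 6, where the others lay between -0.47 and -0.18. Mm014 stood at 0.34 in CAR-deficient liver 1, where the others lay between -0.30 and -0.07.

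The response of Mm133 in PXR-deficient livers exceeded that in CAR-deficient livers by 0.67, a difference past the threshold of the test, as it was for 19.2% of all probes. The call was lost under 5 of 21 alternative settings, among them calibration-spot centring and either form of the authors' deposited table.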

How the results depend on the processing

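Every member with a value kept a gap below 0 under all 21 alternatives and all 23 settings without 1 sample. A low gap is what chose the members, and the settings reuse the same arrays, so this describes the members and is no test. The settings that only changed the filter on dim probes left each gap as it was, and the stricter filter kept 5 members. The share of all probes below 0 was taken for the centrings given above, not for the other settings. Leaving out 1 sample gave median gaps of -1.01 to -0.77. The members' median response was 0.56 with calibration-spot centring and 0.78 with the authors' deposited table in CAR/PXR-deficient livers, 0.55 and 0.47 in PXR-deficient, 0.64 and 0.61 in CAR-deficient, and -0.63 with calibration spots in WT livers. Without 1 sample it lay between -0.61 and -0.50 in CAR/PXR-deficient, 0.02 and 0.07 in PXR-deficient, -0.02 and 0.03 in CAR-deficient, and -0.40 and -0.097 (without WT replicate 6) in WT livers. The members' median shift with CAR loss was 0.63 with calibration spots and 0.69 with the authors' table, that with PXR loss 0.44 and 0.45, and the median mean response 0.26 and 0.38, so all 3 turned from below to above 0. Without 1 sample CAR loss gave -0.25 to -0.12, PXR loss -0.21 (without WT replicate 6) to -0.063 (without WT replicate 1), and the mean response -0.23 to -0.15. Of single probes, signs turned for CAR loss in Mm133 (0.20, 0.46), Mm112 (0.60, 0.66) and Mm027 (0.19 with the authors' table), for PXR loss in Mm012 (0.076, 0.34), and for the mean response in Mm002 (0.26, 0.43), Mm046 (0.38, 0.38), Mm133 (0.26, 0.38) and Mm014 (0.14 with that table). Members called for PXR-deficient against CAR-deficient numbered 2 with probe-median centring (15 of all 78 probes called) or 24 arrays (20 of 78). They also numbered 2 with the replicate block or without CAR/PXR-deficient replicate 4 (1 without any other sample). The number was 3 with flagged spots kept, except those flagged as bad (23 of 80 probes), or with array weights (25 of 78). It was 0 with calibration spots (5 of 78), the authors' table as deposited (3 of 79) or centred (15 of 79), or scan position 2 alone. The number of all probes called thus also changed with the setting. Median channel gaps under separate centring, chosen after seeing the data, were -0.47 in treated livers and 0.65 in pools. The causes were not tested.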
